A study of Mus musculus with 14 samples.

Results

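The genes described here are 43 genes of the cell cycle and of mitosis, chosen by symbol: every probe set whose platform annotation named 1 of these genes and no other was taken. Of the 43 genes, 42 had such a probe set, 81 probe sets in all, out of 12393 genes named on the array, and the expression of Ccnb1 is not analysed here. The genes fall into 7 roles: 2 proliferation markers, 9 cyclins, kinases and E2F factors of G1 and of the boundary between G1 and S phase, 3 inhibitors of cyclin-dependent kinases (CDKs), 10 genes of DNA replication and nucleotide supply, 7 cyclins and kinases of G2 and mitosis, 6 genes of the spindle checkpoint and the anaphase-promoting complex, and 6 genes of the spindle and of cytokinesis.

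RNA came from the whole inguinal (number 4) mammary gland, freed of its lymph nodes, of untreated female CD1 mice, an outbred stock, at 3, 4, 5, 6 or 7 weeks of age (3wk to 7wk). Affymetrix expression arrays carried pooled RNA of at least 3 mice each, with 2 arrays at 5wk, lettered A and B, and 3 at each other age, lettered A to C. The labels name no transgene, deletion or agent for any group, so the groups differ by age alone as far as they say. The labels do not say whether pools shared mice, and p-values measure the spread between pools, whose number limits the precision.

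Each deposited value is a ratio that sets a probe set on 1 array against its median on the 14, so 1 is that median and no level can be set against that of another gene. The value of a gene is the mean log2 ratio of its tested probe sets, and is printed below as a linear ratio unless a log2 value is named. Probe sets with very low signal were left out, which removed 8 of the 81, among them both of Bub1, so that 41 of the 43 genes and 73 probe sets were tested. A gene is called changed where the adjusted p over all 10593 genes tested was under 0.05 in limma. In a whole gland, fewer cells of a type and less RNA per cell cannot be told apart.

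Of the probe sets for luminal and basal epithelial markers, 22 of 23 and 17 of 20 passed the same filter, and the mean log2 ratio of the 15 luminal markers went from −1.71 ± 0.42 (SD, n = 3) at 3wk to 0.31 ± 0.16 at 7wk. The arrays also differed in controls of handling. The log2 ratio of 5′ to 3′ signal for actin averaged −0.45 ± 0.35 at 6wk against 0.07 ± 0.12 at 3wk, that for pyruvate carboxylase −2.37 ± 0.50 against −0.09 ± 0.51, and the hybridisation controls averaged −1.21 ± 0.58 at 7wk against −0.15 ± 0.38 at 6wk.

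Cells divide by passing through G1, S phase, G2 and mitosis. Cyclins of the D type with the kinases CDK4 and CDK6, followed by cyclin E with CDK2, inactivate the retinoblastoma protein and release E2F factors, which turn on genes of DNA replication, and a later wave of transcription, carried through promoter elements known as the cell cycle homology region (CHR) and the CCAAT box, supplies the genes of G2 and mitosis. In the pubertal mammary gland, division is known to be concentrated in the terminal end buds, the bulbs at the tips of ducts that grow into the fat pad under oestrogen and growth hormone.

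Promoters of 36 of the 43 genes were matched by symbol in the RefSeq windows of GRCm38.p6, and the 250 bases before the annotated start were searched on both strands for E2F-like letters (TTTGGCGC, TTTCCCGC, TTTCGCGC and TTTGCCGC), CHR-like letters (TTTGAA and TTCGAA) and the CCAAT box (CCAAT). E2F-like letters stood in 5 of the 36 windows (13.9%, against 1.9% of 27025 promoters), CHR-like letters in 10 (27.8% against 17.4%) and a CCAAT box in 25 (69.4% against 34.5%). All 10 windows with CHR-like letters also held a CCAAT box, a combination found in 6.2% of all promoters. A CCAAT box was found for 8 of 9 replication genes, 5 of 5 genes of G2 and mitosis and 5 of 6 checkpoint genes, but for 1 of 6 genes of G1 and 1 of 3 CDK inhibitors. These counts include Ccnb1 and Bub1, whose expression was not tested. A match describes letters and is not a site shown to be bound. Of the promoters below, Mki67, Top2a and Cdk1 belong to genes that were low on 7wk A and B (Cdk1 as low on 7wk C), and Mcm6, Cdk4 and Cdk6 to genes called at 6wk. Each is written 5′ to 3′ along the gene, with matches in capitals: Mki67 is chr7:135716380-135716629 (minus strand), Top2a chr11:99024190-99024439 (minus), Cdk1 chr10:69352913-69353162 (minus), Mcm6 chr1:128359706-128359955 (minus), Cdk4 chr10:127063285-127063534 (plus) and Cdk6 chr5:3343643-3343892 (plus).
Mki67: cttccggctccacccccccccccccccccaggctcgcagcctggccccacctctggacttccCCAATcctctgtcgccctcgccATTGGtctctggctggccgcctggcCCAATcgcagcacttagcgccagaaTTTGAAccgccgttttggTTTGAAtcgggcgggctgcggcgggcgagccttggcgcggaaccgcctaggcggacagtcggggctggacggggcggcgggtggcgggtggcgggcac
Top2a: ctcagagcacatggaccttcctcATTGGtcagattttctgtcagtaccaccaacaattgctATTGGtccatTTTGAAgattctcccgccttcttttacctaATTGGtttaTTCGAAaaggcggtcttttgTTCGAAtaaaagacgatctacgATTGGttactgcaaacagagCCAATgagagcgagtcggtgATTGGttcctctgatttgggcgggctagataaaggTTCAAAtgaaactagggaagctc
Cdk1: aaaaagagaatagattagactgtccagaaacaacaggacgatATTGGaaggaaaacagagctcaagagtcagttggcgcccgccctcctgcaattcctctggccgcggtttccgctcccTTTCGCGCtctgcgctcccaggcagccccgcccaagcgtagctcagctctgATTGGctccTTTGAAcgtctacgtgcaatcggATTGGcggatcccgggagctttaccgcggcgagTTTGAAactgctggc
Mcm6: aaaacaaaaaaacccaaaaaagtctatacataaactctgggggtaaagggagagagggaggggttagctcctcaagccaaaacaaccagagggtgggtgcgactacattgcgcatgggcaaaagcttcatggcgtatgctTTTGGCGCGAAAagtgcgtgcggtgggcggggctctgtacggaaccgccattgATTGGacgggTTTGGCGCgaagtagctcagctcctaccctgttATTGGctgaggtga
Cdk4: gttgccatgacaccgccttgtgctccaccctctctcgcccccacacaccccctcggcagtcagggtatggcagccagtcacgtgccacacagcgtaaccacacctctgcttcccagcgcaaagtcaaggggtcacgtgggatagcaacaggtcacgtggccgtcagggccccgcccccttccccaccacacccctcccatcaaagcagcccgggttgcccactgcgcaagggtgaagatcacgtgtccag
Cdk6: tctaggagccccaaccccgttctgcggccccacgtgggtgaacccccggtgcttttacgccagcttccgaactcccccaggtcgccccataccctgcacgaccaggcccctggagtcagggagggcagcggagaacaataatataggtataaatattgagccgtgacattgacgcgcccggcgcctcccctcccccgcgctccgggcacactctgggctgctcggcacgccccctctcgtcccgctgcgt
Mki67 held 2 CHR-like matches and 3 CCAAT boxes, Top2a 4 and 6, and Cdk1 2 and 3 with 1 E2F-like match. Mcm6 held 3 E2F-like matches, of which 2 overlap each other, and 2 CCAAT boxes, while no window had matches of different motifs that overlapped. The windows of Cdk4 and Cdk6 held none of these letters, which says only that they are absent from these 250 bases. No window was matched for Ccnd2 or Ccne2.

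Over the 5 ages, 2 of the 41 cell cycle genes tested were called in the F test, Cdk6 (adjusted p = 0.00652) and Ccnd2 (adjusted p = 0.00792, limma), against 11.2% of all genes called. Cdk6 passed the filter on level only through both arrays of 5wk, where it is high, so its place among the genes tested is not independent of its difference. With no filter, which tests all 12393 genes, the adjusted p was 0.012 for Cdk6 and 0.0144 for Ccnd2 (limma). At an unadjusted p under 0.05 there were 17 of 41 (41.5%), against 28% of all genes. Cdk6 and Ccnd2 belong to the G1 role, and none of the 29 tested genes of replication, G2, mitosis, checkpoint, spindle and proliferation was called over the ages. Without 7wk C the F test called 8 of the 41 (Bub1b, Ccnd2, Ccne2, Cdk6, Mad2l1, Mki67, Nusap1 and Ube2c), where 8.04% of all genes were called. Without both 3wk A and 7wk C it called 5 (Ccnd2, Cdk6, Mcm6, Mki67 and Tk1), where 6.55% of all genes were called. These arrays were left out for how they differ in these same data, so such calls only describe the arrays that remain.

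**Figure D1:**
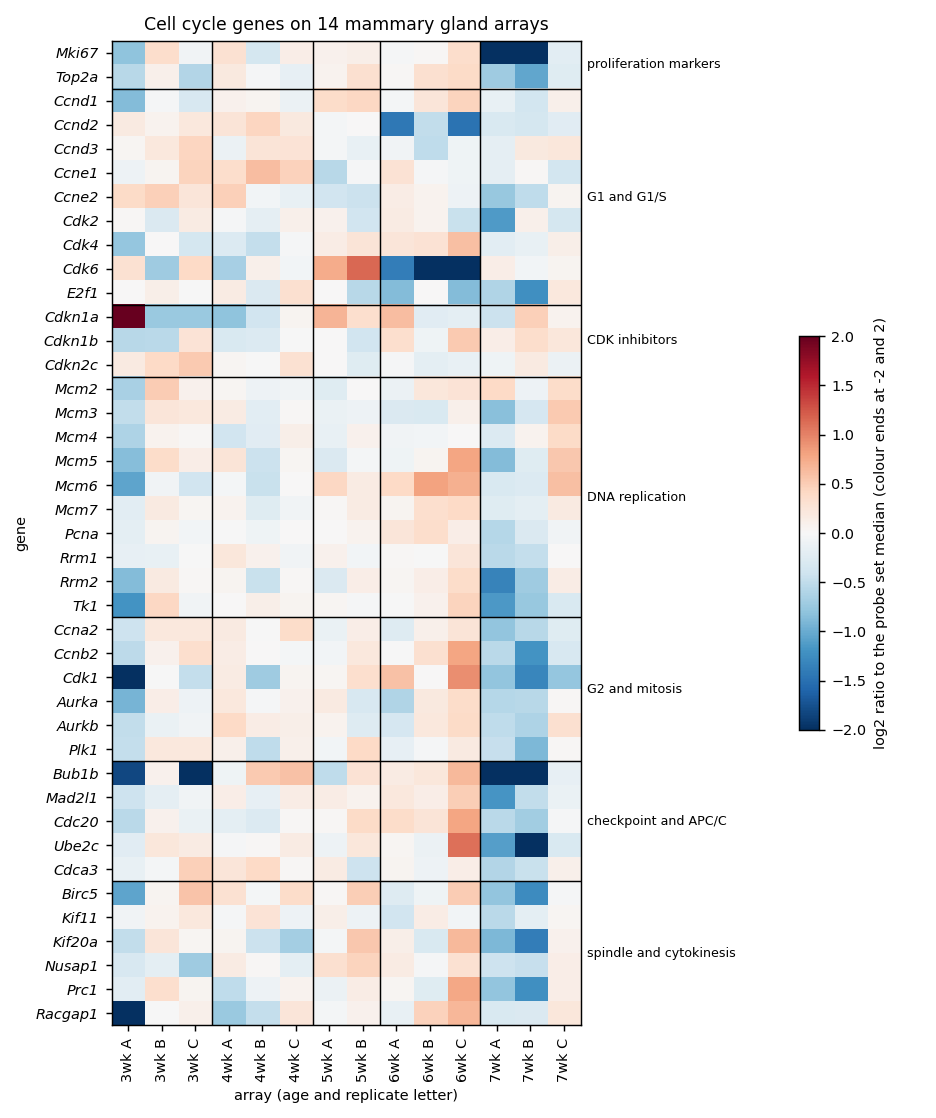
Log2 ratio of each of the 41 genes tested (rows, grouped by role) on each of the 14 arrays (columns, grouped by age), with colour ending at −2 and 2. The columns of 3wk A, 7wk A and 7wk B are mostly blue, 6wk C is mostly red, and Cdk6 and Ccnd2 are blue at 6wk.

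Cdk6 encodes a kinase that partners with D-type cyclins in G1. Its ratios were 1.24, 0.610 and 1.31 at 3wk, 0.628, 1.08 and 0.965 at 4wk, 1.67 and 2.21 at 5wk, 0.385, 0.208 and 0.11 at 6wk, and 1.1, 0.963 and 1.03 at 7wk. All 3 arrays of 6wk lay below every other array, and both arrays of 5wk lay above every other. The log2 difference from 5wk to 6wk was −3.22 (SE 0.466, adjusted p = 0.0417, limma) and that from 6wk to 7wk 2.32 (SE 0.417, adjusted p = 0.0413). With no filter on level the adjusted p was 0.0779 and 0.072, so neither is given as a change. No other gene of the 41 passed the threshold in those comparisons, in which 0.0944% and 0.368% of all genes were called. From 3wk to 6wk the difference was −2.27 (SE 0.417, adjusted p = 0.00504, and 0.00833 with no filter). The gene has 1 probe set, with a median level of 135 steps, where a step is the smallest unit in which the ratios of dim probe sets vary and the filter asked for 200 on at least 2 arrays. Only 5wk A and B reached 200, so every value at 3wk, 4wk, 6wk and 7wk lies below the level that the filter asked for. Leaving out 1 array ended the call from 5wk to 6wk for 12 of the 14 arrays and the call from 6wk to 7wk for 11 of them, with adjusted p up to 0.153 and 0.159, whereas the call from 3wk to 6wk held for all 14.

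Ccnd2 encodes cyclin D2, a D-type cyclin. Its ratios were 1.13, 1.05 and 1.15 at 3wk, 1.19, 1.34 and 1.15 at 4wk, 0.970 and 1.01 at 5wk, 0.373, 0.710 and 0.360 at 6wk, and 0.810, 0.786 and 0.855 at 7wk. The arrays of 6wk and 7wk did not overlap those of 3wk to 5wk, and all 3 of 6wk lay below all 3 of 7wk. Ccnd2 fell from 3wk to 6wk by 1.28 on the log2 scale (SE 0.214, adjusted p = 0.00314, limma). Its 7 probe sets all had negative differences from 3wk to 6wk, from −0.23 to −3.23, and 3 of them were called on their own. The largest came from the dimmest, with median levels of 179 and 281 steps, and with the stricter filter on level, which removes both, the difference of the gene was −0.55 (SE 0.109, adjusted p = 0.00437).

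From 3wk to 6wk, 5 of the 41 genes were called (14.5% of all genes), 2 higher and 3 lower at 6wk. Besides Cdk6 and Ccnd2 these were Mcm6, Cdk4 and Cdkn2c. Mcm6 encodes a subunit of the helicase that opens DNA at replication origins, and its ratios were 0.479, 0.948 and 0.770 at 3wk, 0.974, 0.738 and 1.01 at 4wk, 1.33 and 1.12 at 5wk, 1.32, 1.74 and 1.63 at 6wk, and 0.812, 0.828 and 1.51 at 7wk. Its log2 difference from 3wk to 6wk was 1.14 (SE 0.287, adjusted p = 0.0228, limma), and at 7wk only array C lay within the range of 6wk. Of its 2 probe sets, only the dimmer, with a median level of 309 steps, was called on its own (1.47). Cdk4 encodes the other kinase of D-type cyclins, and its ratios were 0.584, 1.01 and 0.783 at 3wk, 0.825, 0.722 and 0.986 at 4wk, 1.11 and 1.19 at 5wk, 1.19, 1.22 and 1.51 at 6wk, and 0.867, 0.901 and 1.09 at 7wk. Its difference from 3wk to 6wk was 0.75 (SE 0.199, adjusted p = 0.0293, limma), and its 3 probe sets had differences from 0.67 to 0.86.

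Cdkn2c, which encodes an inhibitor of both kinases, had ratios of 1.13, 1.32 and 1.44 at 3wk, 1.03, 0.992 and 1.24 at 4wk, 1.01 and 0.846 at 5wk, 0.98, 0.874 and 0.899 at 6wk, and 0.946, 1.14 and 0.924 at 7wk. Its log2 difference from 3wk to 6wk was −0.49 (SE 0.143, adjusted p = 0.0402, limma), and the arrays of the 2 ages did not overlap. That call was lost with no filter on level, so the difference is not given as a change. The replicate block and the hybridisation controls as a covariate also ended it, as did leaving out any 1 of 8 arrays. With the 5′ to 3′ ratio of actin as a covariate, the calls of Cdk4, Mcm6 and Cdkn2c from 3wk to 6wk were lost (adjusted p = 0.218, 0.324 and 0.212, limma) while those of Cdk6 and Ccnd2 held. On 6wk A to C the actin ratio was −0.46, −0.79 and −0.08. That of pyruvate carboxylase was −2.8, −2.5 and −1.8, below every other array, and was not used as a covariate. Whether the differences of Cdk6 and Ccnd2 at 6wk go with RNA quality was therefore not tested. Without 3wk A, which was the lowest array of its age for Cdk4 and Mcm6, their differences were 0.55 (adjusted p = 0.0867) and 0.86 (adjusted p = 0.0716). The call of Cdk4 was also lost without 3wk C or any 1 array of 6wk, and that of Mcm6 without 6wk B or 6wk C.

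**Figure D2:**
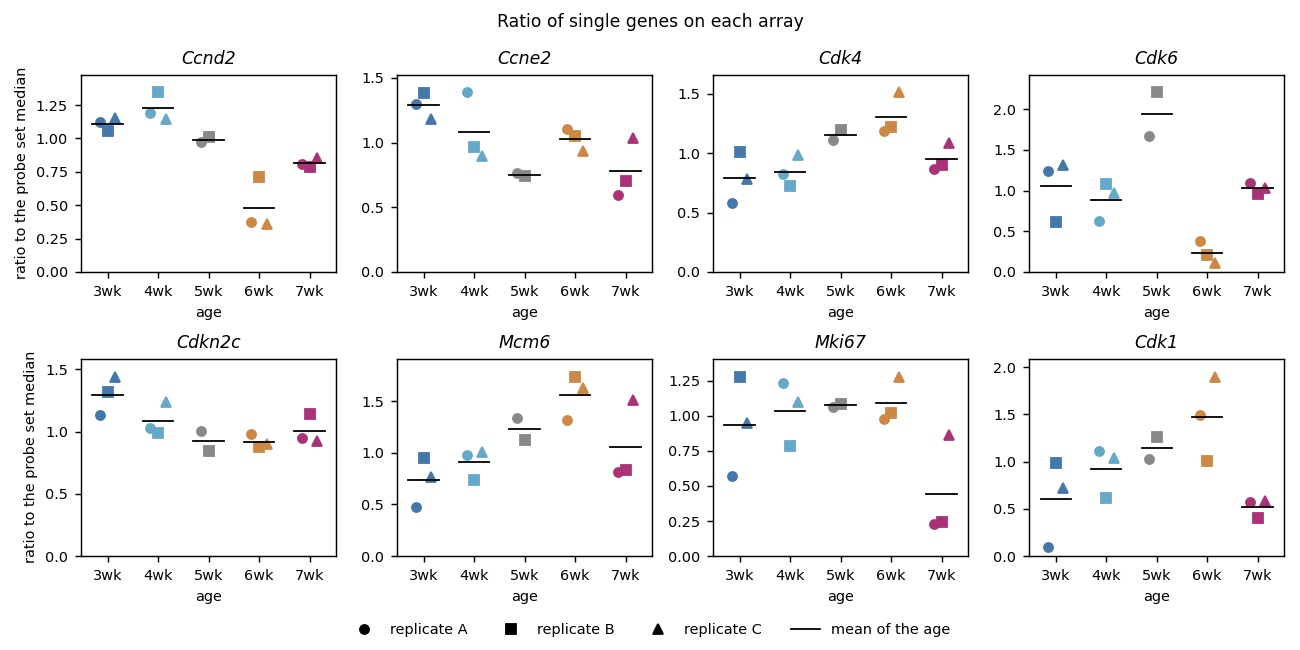
Ratio of a gene to its probe set median (vertical axis, from 0) on each array by age for the 6 genes called in any test and for Mki67 and Cdk1, with 1 point per array, shaped by replicate letter, and a line at the mean of each age. The 3 arrays of 6wk are the lowest for Cdk6, at 0.11 to 0.385, and Mki67 stands at 0.231 and 0.240 on 7wk A and B but 0.865 on 7wk C.

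From 3wk to 7wk, 1 of the 41 genes was called, against 10.3% of all genes. This was Ccne2, which encodes cyclin E2, the partner of CDK2 at entry into S phase. Its ratios were 1.30, 1.39 and 1.18 at 3wk, 1.39, 0.963 and 0.899 at 4wk, 0.764 and 0.739 at 5wk, 1.11, 1.05 and 0.934 at 6wk, and 0.593, 0.704 and 1.04 at 7wk, so that 3wk and 7wk did not overlap. The log2 difference from 3wk to 7wk was −0.77 (SE 0.210, adjusted p = 0.0405, limma). It rests on 1 probe set with a median level of 179 steps, which reached 200 only on the 3 arrays of 3wk and on 4wk A and so passed the filter through the age where it is high. With no filter the adjusted p was 0.0607, so the difference is not given as a change, and the call was also lost with the hybridisation controls as a covariate (−0.55, adjusted p = 0.384). The gene of the other E-type cyclin, Ccne1, had ratios from 0.681 to 1.53 and no call.

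None of the 41 genes was called from 3wk to 4wk (0.179% of all genes), from 4wk to 5wk (0.84%), from 3wk to 5wk (4.78%) or from 4wk to 7wk (3.94%) in limma. At an unadjusted p under 0.05 there were 1, 2, 6 and 14 of 41 in these comparisons (2.4%, 4.9%, 14.6% and 34.1%), against 11.1%, 15.2%, 19% and 18.3% of all genes. The share lay below that of all genes in each of the comparisons but the last. In the last of these all 14 had negative differences, among them Mki67, Top2a, Ccna2, Ccnb2, Birc5 and Ube2c. Comparisons that share an age share its arrays, and their values are given side by side without setting 1 against another.

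Ki-67, the product of Mki67, is present in dividing cells and is the common histological marker of proliferation. The ratios of Mki67 were 0.572, 1.28 and 0.950 at 3wk, 1.23, 0.783 and 1.1 at 4wk, 1.06 and 1.09 at 5wk, 0.98, 1.02 and 1.28 at 6wk, and 0.231, 0.240 and 0.865 at 7wk. Arrays A and B of 7wk were far below all others, while C of 7wk lay within the range of 3wk and 4wk. The log2 difference from 6wk to 7wk was −1.58 (SE 0.453, adjusted p = 0.173) over all arrays and −2.21 (SE 0.303, adjusted p = 0.0337, limma) without 7wk C. Since 7wk C was left out for how high these same genes are on it, the second value only describes the remaining arrays. Top2a, which encodes the topoisomerase that untangles DNA before mitosis, had ratios of 0.681, 1.07 and 0.665 at 3wk, 1.15, 0.982 and 0.888 at 4wk, 1.05 and 1.25 at 5wk, 1.02, 1.25 and 1.30 at 6wk, and 0.614, 0.489 and 0.849 at 7wk. All 3 arrays of 7wk were below all 3 of 6wk, and the difference was −0.90 (SE 0.232, adjusted p = 0.133).

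Among the genes of G2 and mitosis, Cdk1 encodes the kinase that drives entry into mitosis. Its ratios were 0.0977, 0.990 and 0.717 at 3wk, 1.12, 0.614 and 1.04 at 4wk, 1.03 and 1.26 at 5wk, 1.49, 1.01 and 1.90 at 6wk, and 0.577, 0.403 and 0.588 at 7wk. Here the 3 arrays of 7wk lay close together, all below those of 6wk, and the difference from 6wk to 7wk was −1.46 (SE 0.676, adjusted p = 0.400, limma). Array 3wk A was the lowest of all by a wide margin. Ccna2, the gene of cyclin A2, which acts in S phase and G2, had ratios of 0.748, 1.16 and 1.16 at 3wk, 1.14, 0.995 and 1.29 at 4wk, 0.907 and 1.09 at 5wk, 0.833, 1.07 and 1.19 at 6wk, and 0.581, 0.683 and 0.848 at 7wk. Its difference from 4wk to 7wk was −0.70 (SE 0.215, adjusted p = 0.1), with no overlap between the 2 ages. The other 4 genes of this role, Ccnb2, Aurka, Aurkb and Plk1, had ratios between 0.436 and 1.74, with all 4 differences from 6wk to 7wk negative and none called.

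Of the 10 genes of replication and nucleotide supply, Mcm6 alone was called, in 1 comparison. Mcm2, another helicase subunit, had ratios of 0.640, 1.42 and 1.07 at 3wk, 1.03, 0.935 and 0.954 at 4wk, 0.845 and 1 at 5wk, 0.918, 1.17 and 1.21 at 6wk, and 1.32, 0.933 and 1.29 at 7wk, with all ages overlapping 3wk. Its 2 probe sets went apart on 7wk A, at 2.87 and 0.61. The second was lowest of its age on 7wk A and highest on 7wk C (1.27). Pcna, the sliding clamp of DNA polymerase, had ratios of 0.869, 1.03 and 0.959 at 3wk, 0.998, 0.941 and 1.01 at 4wk, 1 and 1.05 at 5wk, 1.19, 1.28 and 1.1 at 6wk, and 0.672, 0.819 and 0.953 at 7wk. All 3 arrays of 6wk lay above every other array, 7wk A and B lay below every other, and the difference from 6wk to 7wk was −0.56 (SE 0.136, adjusted p = 0.122, limma). Rrm2 and Tk1, which supply deoxynucleotides, had ratios of 0.397 and 0.452 on 7wk A against 1.11 and 0.811 on 7wk C. Mcm3, Mcm4, Mcm5, Mcm6, Mcm7 and Rrm1 had differences from 6wk to 7wk between −0.62 and 0.10.

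Of the checkpoint genes, Bub1b, whose product holds back anaphase, had ratios of 0.282, 1.06 and 0.178 at 3wk and 0.198, 0.197 and 0.890 at 7wk, with the other 8 arrays between 0.7 and 1.56. Ube2c, the ubiquitin-conjugating enzyme of the anaphase-promoting complex, stood at 0.468, 0.228 and 0.808 at 7wk, and at 2.15 on 6wk C, the highest of its 14 values. Its difference from 3wk to 7wk was −1.23 (SE 0.412, adjusted p = 0.0864) over all arrays and −1.67 (SE 0.376, adjusted p = 0.0293, limma) without 7wk C. Here too the value without 7wk C only describes the arrays that remain. Mad2l1, Cdc20 and Cdca3 had ratios from 0.440 to 1.73 and no call. Bub1, a checkpoint kinase whose 2 probe sets had median levels of 95 and 60 steps, below the filter, was not tested. In the spindle and cytokinesis group Racgap1, which acts in the closing of the cleavage furrow, had its lowest ratio, 0.241, on 3wk A. That value came from its dimmer probe set (0.0746 on 3wk A), with a median level of 145 steps. This probe set passed the filter only through 6wk B and 6wk C, where it is high. The other probe set stood at 0.782 on 3wk A and was lowest on 7wk A (0.681). The ratios of Birc5, Kif11, Kif20a, Nusap1 and Prc1 ranged from 0.384 to 1.71. All 6 differences of this role from 6wk to 7wk were negative and none was called.

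The G1 and inhibitor genes not yet described had no call. Ccnd1, the gene of cyclin D1, a D-type cyclin needed for full growth of the gland in pregnancy, had ratios of 0.546, 0.979 and 0.802 at 3wk, 1.06, 1.04 and 0.926 at 4wk, 1.29 and 1.33 at 5wk, 0.973, 1.18 and 1.36 at 6wk, and 0.905, 0.775 and 1.07 at 7wk. Both arrays of 5wk lay above all of 3wk and 4wk, and the difference from 3wk to 5wk was 0.80 (SE 0.233, adjusted p = 0.0793) and to 6wk 0.62 (SE 0.209, adjusted p = 0.0681, limma), with no call. Of its 3 probe sets, 2 were called on their own from 3wk to 6wk (0.92 and 0.68). Ccnd3, Cdk2 and E2f1 had ratios from 0.428 to 1.35 and no call. Cdkn1a, a CDK inhibitor that is a target of the p53 protein, had ratios of 5.13, 0.600 and 0.601 at 3wk, 0.572, 0.763 and 1.04 at 4wk, 1.60 and 1.27 at 5wk, 1.54, 0.854 and 0.877 at 6wk, and 0.741, 1.39 and 1.05 at 7wk. Both of its probe sets were highest on 3wk A (6.86 and 3.84), the array on which Cdk1 was lowest. Cdkn1b, an inhibitor of CDK2 complexes, had ratios from 0.683 to 1.44 and no call.

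**Figure D3:**
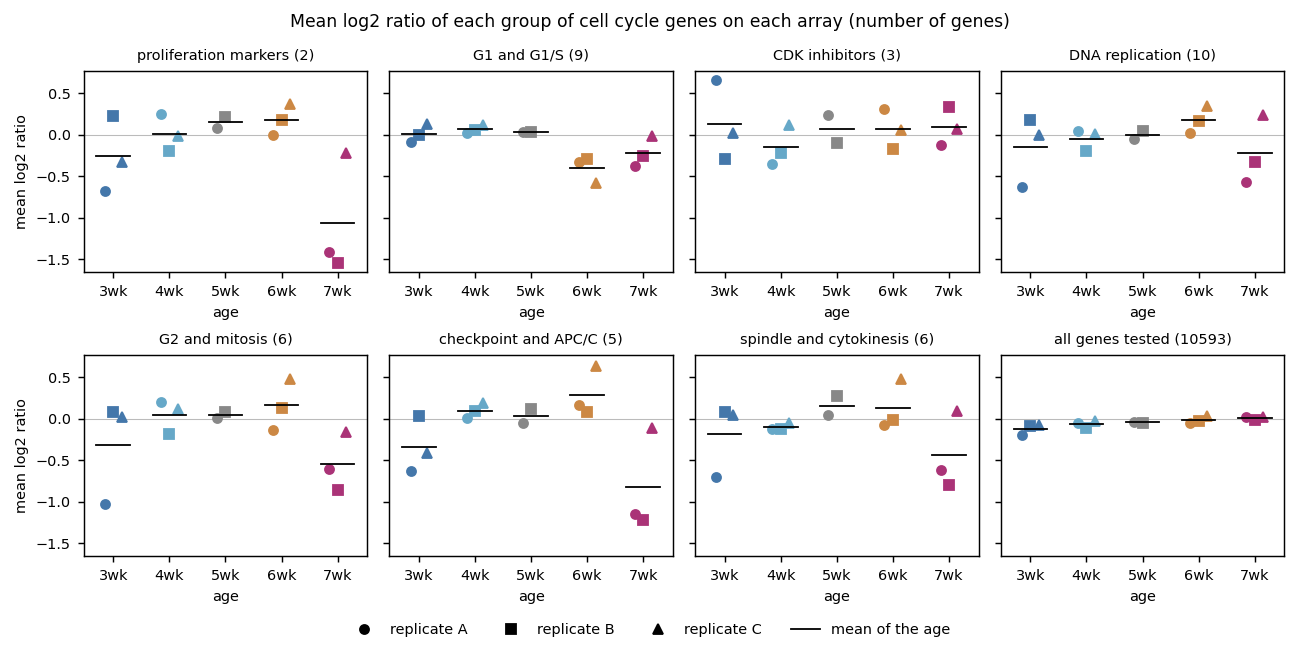
Mean log2 ratio of the genes of each role (number of genes in brackets) on each array by age, with 1 point per array, shaped by replicate letter, a line at the mean of each age, and all 10593 genes tested in the last panel, on a shared vertical axis. In 5 of the 7 roles 7wk A and B lie well below 7wk C.

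Arrays of the same age differed from each other in these genes. Averaged over the 41 genes, the log2 ratio was −0.49, 0.06 and −0.03 at 3wk (A to C), 0.01, −0.09 and 0.07 at 4wk, 0.02 and 0.09 at 5wk, −0.05, 0.00 and 0.20 at 6wk, and −0.62, −0.58 and 0.03 at 7wk. Arrays 3wk A, 7wk A and 7wk B stood apart below the rest, and 7wk C lay with 3wk to 6wk. The same mean over all genes tested ran from −0.20 on 3wk A to 0.03 on 6wk C. Array 3wk A was the lowest of its age for 32 of the 41 genes (78.0%, against 47.4% of all genes), 6wk C the highest for 29 (70.7% against 39.2%) and 7wk C the highest for 34 (82.9% against 34.6%).

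Over all 14 arrays, the lowest value of a gene fell on 7wk A for 13 of the 41 genes (31.7%, against 4.7% of all genes), on 7wk B for 10 (24.4% against 6.5%) and on 3wk A for 10 (24.4% against 18.2%). The highest fell on 6wk C for 19 (46.3% against 10.6%). Genes of the later phases shared this pattern: 3wk A was lowest and 7wk C highest of its age for all 6 genes of G2 and mitosis, and 3wk A was lowest for all 10 replication genes, of which 9 were highest on 7wk C. In the G1 role 3wk A was lowest for 4 of 9 and 7wk C highest for 6 of 9, and the difference between roles was not tested. The pooled SD within ages had a median of 0.34 over the 41 genes and 0.26 over all genes (log2).

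Across the 14 arrays, after each age's mean was taken away, 23 of the 41 genes had a correlation over 0.7 with the mean of the others and 5 had one below 0. The highest were Mki67 (0.95), Mcm3 (0.94), Rrm2 (0.93), Mcm5 (0.92) and Mcm6 (0.91), and the lowest Cdkn1a (−0.62), Cdk6 (−0.43), Ccne1 (−0.13), Ccnd2 (−0.11) and Cdk2 (−0.08). These values describe 14 arrays that the genes share, with the same RNA pools and hybridisations behind every gene. Both genes called over the ages, Cdk6 and Ccnd2, were thus among the 5 with a correlation below 0. The values of Ccnd2, Ccne1 and Cdk2 lay near 0, as did that of Cdkn2c (0.07).

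From 6wk to 7wk, 34 of the 41 genes had negative differences, with a median of −0.44 against −0.0009 over all genes, and 18 (43.9%) had an unadjusted p under 0.05 against 12.8% of all genes. Of these 18, Cdk6 and Ccnd2 had positive differences and 16 had negative ones, none of which was called after adjustment over all genes. The largest of the 16 were Bub1b (−1.96), Mki67 (−1.58), Ube2c (−1.52) and Ccnb2 (−1.05). For Bub1b, 7wk A and B lay below the level that the filter asked for, so the size of its difference is uncertain. From 4wk to 7wk the median was −0.42 with 33 of 41 negative, from 3wk to 7wk −0.26 with 31 negative, and from 3wk to 6wk 0.26 with 29 positive. Under quantile normalization the negative counts at 7wk were 35 of 41 against 6wk and 34 against 3wk. The hybridisation controls were lowest on 7wk A (−1.86), with −0.79 on 7wk B and −0.97 on 7wk C, and with them as a covariate 2 of all 10593 genes were called from 6wk to 7wk, neither of them among the 41.

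**Figure D4:**
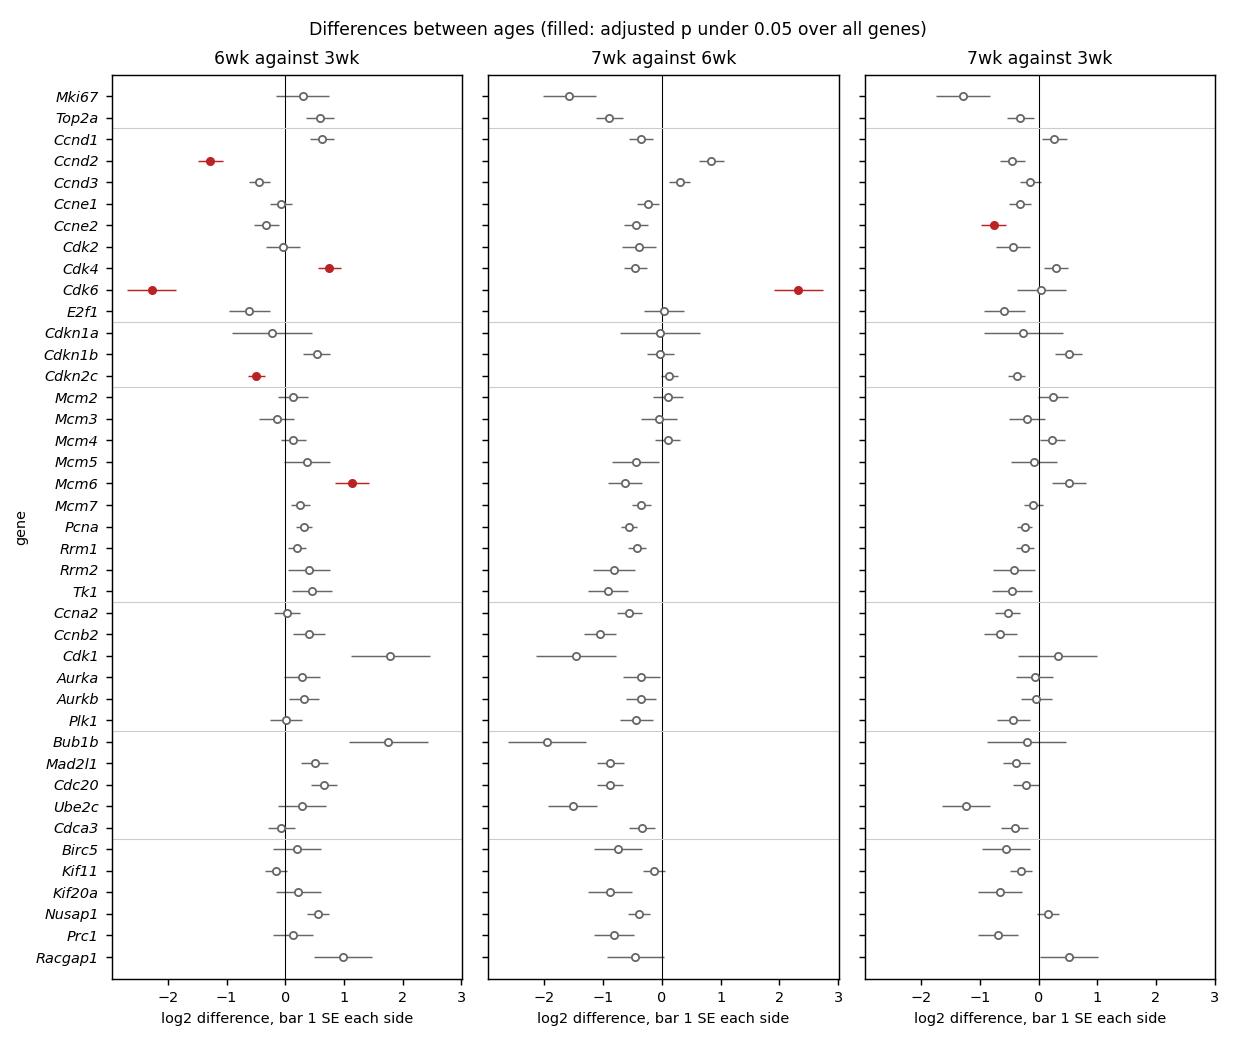
Log2 difference (horizontal axis, shared) of each of the 41 genes from 3wk to 6wk, from 6wk to 7wk and from 3wk to 7wk, with bars of 1 SE on each side and filled points where the adjusted p was under 0.05. From 6wk to 7wk 34 of 41 points lie left of 0, and Cdk6 and Ccnd2 lie to the right.

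In these genes 3wk A was low for its age and 7wk C was high for its age. Over all genes tested, the mean log2 ratio of 7wk C (0.02) lay near those of 7wk A (0.02) and 7wk B (−0.01). Leaving out both 3wk A and 7wk C changed which genes were called from 3wk to 7wk. There were 7 such genes in limma, Birc5, Ccna2, Ccne2, Mki67, Rrm2, Tk1 and Ube2c, all lower at 7wk, where 4.64% of all genes were called. Mki67 differed by −2.23 (SE 0.239, adjusted p = 0.00182), Ube2c by −1.81 (SE 0.417, adjusted p = 0.0432) and Tk1 by −1.12 (SE 0.215, adjusted p = 0.0214). From 4wk to 7wk the calls were then Mki67 and Tk1 (1.95% of all genes called), and from 6wk to 7wk Mki67 (0.0661%). These 2 arrays were left out because of how these same genes stood on them. Without a low array of 3wk and a high array of 7wk, the differences from 3wk to 7wk move downward by construction. The calls without them are thus a description of the other 12 arrays, and their adjusted p is no test of a fall.

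Markers of cell types were read on the same arrays. On 3wk A the 15 luminal markers averaged −2.19 (log2) against −1.43 and −1.49 on 3wk B and C, the 9 macrophage markers −0.58 against 0.14 and 0.11, and the 9 fibroblast markers −0.42 against −0.12 and −0.10, so those lists were low there together with the cell cycle genes. Other lists were at the highest of their age on 3wk A, among them the basal markers (−0.65 against −0.95 and −0.87), 9 brown adipocyte markers (1.71 against 1.52 and 1.21), 8 endothelial markers (0.14 against −0.10 and −0.32) and 4 skeletal muscle markers (0.90 against −0.30 and −0.90). At 7wk (A to C) the luminal markers averaged 0.47, 0.30 and 0.15 and the 11 basal markers 0.25, −0.06 and 0.04, so the luminal list was higher on A and B than on C and the basal list differed in both directions. The 7 lymphocyte markers tested of 11 averaged −0.07, 0.94 and 0.59 on these 3 arrays. On 6wk C the luminal and basal markers were at their highest, 0.81 and 0.77. The part of the cell types in the differences between arrays was not tested.

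**Figure D5:**
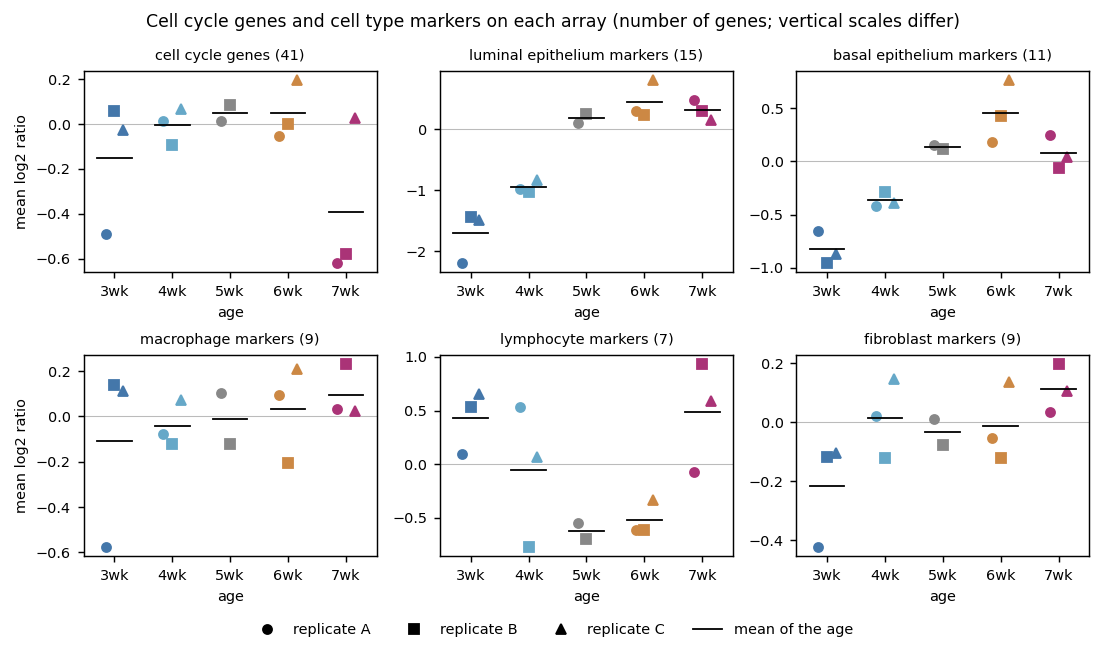
Mean log2 ratio of the 41 cell cycle genes and of 5 lists of cell type markers (number of genes in brackets) on each array by age, with vertical scales that differ between panels. The luminal mean goes from −1.71 at 3wk to 0.18 at 5wk and that of the cell cycle genes from −0.15 to 0.05. At 7wk the cell cycle genes are lower on A and B than on C, whereas the luminal markers are higher on A and B.

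A wider list of 121 genes of replication, mitosis and cell cycle control, none of them among the 43, had 95 genes tested. In the F test 2 of the 95 were called, Rb1 (adjusted p = 0.00486) and Cdkn2b (adjusted p = 0.0334, limma), against 11.2% of all genes, and none of its 32 replication or 34 mitosis genes was called in any comparison. Rb1, the retinoblastoma gene, had ratios of 0.664, 0.701 and 0.731 at 3wk and 1.42, 1.29 and 1.21 at 7wk, and rose by 0.77 (SE 0.122) to 6wk and by 0.90 (SE 0.122) to 7wk. Cdkn2b, which encodes an inhibitor of CDK4 and CDK6, had ratios of 0.131, 0.613 and 0.408 at 3wk and 0.989, 1.22 and 1.36 at 7wk, and rose by 2.17 (SE 0.467) to 5wk, 1.68 (SE 0.418) to 6wk and 1.88 (SE 0.418) to 7wk. From 3wk to 7wk the log2 difference of Gadd45a, a gene of growth arrest, was 1.31 (SE 0.284, adjusted p = 0.0144, limma). That of Rbl2, a relative of Rb1, was 0.61 (SE 0.171, adjusted p = 0.0439). That of Tfdp1, the partner of E2F factors, was −0.68 (SE 0.193, adjusted p = 0.0462). Whether the calls of these related genes hold with no filter or with a covariate is not given here. With the hybridisation controls as a covariate, 273 of all genes were called from 3wk to 7wk, against 1087 without it. The 5 genes called from 3wk to 7wk, where 10.3% of all genes were called, were all from the 29 genes of cell cycle control.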

How the data were processed

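The authors' software, scaling and filters before deposit are not stated in the sources used here. Per the deposited values table, each value is a linear ratio: of 22690 probe sets, 98.48% show an array median within 0.001 of 1. Levels were recovered from the step size of the ratios for 9999 probe sets. Probe sets under 200 steps on all arrays or all but 1 were left out (4356), as were 64 control probe sets, which left 18270.

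The log2 of each ratio was taken without an offset, and a gene is the mean of its tested probe sets that name it alone (20380 probe sets name 1 gene, 691 several, 1555 none). Using limma 3.58.1 (R 4.3.3), age was fitted as a factor over the 14 arrays, with an F test and 8 comparisons between ages (2-sided), each adjusted by Benjamini-Hochberg over 10593 genes at 0.05. The models were tested on simulated data. Plots used Python 3.11.15 and matplotlib 3.10.9. Alternatives covered the filter, offset, normalization, probe sets, weights, block, covariates, moderation and left-out arrays.

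The genes and lists were chosen with earlier results of these data known. All 14 values are printed for genes called in any test and for Mki67, Top2a, Cdk1, Ccna2, Mcm2, Pcna, Ccnd1 and Cdkn1a. Of the related genes, up to 4 with the smallest p of the F test and up to 4 more per comparison by size were to be named among those called, and all 5 called are named.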

Additional observations from a re-analysis of the deposited data

How the results depend on the processing

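The 10 calls of a cell cycle gene in a test were refitted under 12 alternatives (11 where the stricter filter removes the gene) and without each of the 14 arrays. The F test and the comparison from 3wk to 6wk for Ccnd2 and Cdk6, 4 of the 10, were called in all of them, no difference changed sign, and the other 6 calls were lost in at least 1. No alternative used the 5′ to 3′ ratio of pyruvate carboxylase, which was lowest at 6wk. The number of the 41 genes called in the F test, 2 over all arrays, was 1 with the stricter filter and 5 without 3wk A and 7wk C, and 2 to 8 when 1 array was left out (8 without 7wk C, 4 without 3wk B). From 3wk to 6wk it was 5, then 2 with the actin covariate, and 2 to 8 with 1 array left out (8 without 3wk B, 3 without 3wk A or 6wk A, 2 without 6wk B or 6wk C). From 5wk to 6wk it was 1, then 0 with no filter, the stricter filter, quantile normalization, the replicate block, the hybridisation or actin covariate or without 3wk A and 7wk C, 2 with single probe sets, and 0 to 1 with 1 array left out. From 6wk to 7wk it was 1, then 0 with no filter, the stricter filter, quantile normalization, the replicate block or either covariate, 2 with single probe sets, and 0 to 1 with 1 array left out. From 3wk to 7wk it was 1, then 0 with no filter, the replicate block or either covariate, 3 with quantile normalization, 2 with single probe sets, 7 without 3wk A and 7wk C, and 0 to 3 with 1 array left out (3 without 7wk C). From 3wk to 5wk it was 0, then 1 with the stricter filter or array weights, and 0 to 2 with 1 array left out (2 without 7wk C). From 4wk to 7wk it was 0, then 1 with the stricter filter, quantile normalization, the replicate block or the actin covariate, 2 with single probe sets or without 3wk A and 7wk C, and 0 to 1 with 1 array left out. Where not stated above, the cause was not tested. Over all genes, the F test called 1190, against 628 and 587 with the hybridisation and actin covariates and 694 without 3wk A and 7wk C, and the comparison from 3wk to 6wk called 1536, against 395 with the actin covariate. Over all genes tested, none of 26 same-letter pairs of arrays had a correlation of deviations from the age means over 0.1 (−0.072 to 0.075). Whether arrays of the same letter shared a batch was not tested otherwise. The replicate block gave 3 genes in the F test and 5 from 3wk to 6wk. Age with 2 arrays (5wk) and dim probe sets (among them those of Cdk6 and Ccne2, 1 of Cdkn1a, 1 of Racgap1 and 2 of Ccnd2) limit the precision.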

Other observations

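Of the 95 related genes tested, 63 (66.3%) were lowest of their age on 3wk A and 63 were highest of their age on 7wk C, against 47.4% and 34.6% of all genes. Their mean log2 ratio was −0.52, −0.29 and 0.09 at 7wk (A to C) and −0.43 on 3wk A, with 0.02 and −0.03 on 3wk B and C. In the 34 mitosis genes of that list, 29 differences from 6wk to 7wk were negative, with a median of −0.47 against −0.0009 over all genes, and none was called after adjustment over all genes in limma (9 at an unadjusted p under 0.05). In its 32 replication genes 25 were negative, with a median of −0.24.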
